A study of Malus x robusta with 27 samples.

Results

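The phenylalanine ammonia-lyase (PAL) genes HF24990, HF05496, HF01560 and HF40548 are 4 of the 48445 genes measured in flowers of *Malus* × *robusta* and its progeny. They were taken by their gene identifiers, and each is annotated with the aromatic amino acid lyase domain alone. The same domain is annotated in 8 genes in all. The remaining 4 are described after the members. Of the members, 3 passed the filter on low expression used for the tests, and HF40548 did not.

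PAL removes the amino group of phenylalanine to give trans-cinnamic acid, the first step from primary metabolism into the phenylpropanoids. Lignin, flavonoids and anthocyanins, and benzenoid scent compounds such as methyl benzoate all derive from this product. Plants carry PAL as a small gene family whose members are expressed in different tissues and at different stages.

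The study asked which transcripts accompany strong floral fragrance, and sequenced RNA of individual whole flowers from strongly fragrant progeny (SF), weakly fragrant progeny (WF) and standard *M. robusta* (Mr). Flowers were taken at the early balloon stage (EB, small balloon in the labels, petals closed), the early flowering stage (ES, petals opening, stamens not dehisced) and the late flowering stage (LS, petals fully open, stamens dehisced). Each of the 9 groups had 3 libraries, 27 in all. SF and WF are each 1 tree selected among the progeny of *M. robusta*, and Mr trees were 7 years old, so that the replicates of SF and of WF are flowers of 1 tree and the p-values measure the spread between flowers. Libraries are named here by material, stage and replicate, as in SF_LS_1.

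The libraries held 16146228 to 29558381 fragments on genes. Values are FPKM, fragments scaled to the length of the gene and the size of the library, so that levels of different genes can be compared per length. Genes with a MADS-box domain were present in all groups, with 62 to 66 of 126 at a mean FPKM of 1 or more. They were taken by the domain alone, so this count does not tell flowers from other tissue. A pair of libraries stood apart. SF_LS_1 held transcripts of 61 genes that WF expressed and that were near 0 in the rest of SF, at a median of 8.06% of the WF mean at LS. Mr_LS_2 held those of 87 such genes, at a median of 19.8%. Taken against the third material, the medians were 5.05% of the Mr mean in SF_LS_1 (81 genes) and 9.35% of the SF mean in Mr_LS_2 (133 genes). All of these medians were 0% in the other 25 libraries. The Mr genes also near 0 in WF (15) had a median of 0% in SF_LS_1, as did such SF genes (36) in Mr_LS_2. WF genes also near 0 in Mr (15) had a median of 9.37% in SF_LS_1. Those also near 0 in SF (15) had 18.3% in Mr_LS_2. Some results at LS are therefore also given without these libraries or library by library.

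The 4 gene models lie on different chromosomes of the apple HFTH1 genome. HF24990 spans 24364465 to 24370829 on the minus strand of chromosome 7 and is the longest, with 2337 bases of coding length. HF05496 (chromosome 1, 22457147 to 22461009, minus strand) and HF01560 (chromosome 4, 16519708 to 16522898, minus strand) share a coding length of 2163 bases. HF40548 spans 11123716 to 11131000 on the plus strand of chromosome 3, with a coding length of only 1140 bases. HF40549, a further model with the same domain and 699 bases, begins 105 bases downstream of HF40548 on the same strand. Whether these are parts of 1 gene was not tested.

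HF24990 was the most abundant PAL gene over all 27 libraries, with a mean of 231 FPKM, rank 495 of 48445 genes. It was low in closed buds and high in opening flowers of all 3 materials. The 3 SF libraries (replicates 1, 2 and 3) had FPKM values of 43.5, 86.9 and 60.02 at EB, of 517, 344 and 350.0 at ES and of 154, 219 and 207 at LS. The WF libraries had 55.8, 98.9 and 99.3 at EB, then 491, 361 and 119.6 at ES, then 158, 143 and 197 at LS. The Mr libraries had 63.7, 62.9 and 63.6 at EB, then 427, 442 and 393 at ES, then 411, 252 and 419 at LS. The EB libraries lay below all ES and LS libraries of the same material. WF_ES_3 stood well below the other WF libraries at ES, and Mr_LS_2 below the other Mr libraries at LS.

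By group mean, HF24990 was ordered Mr at ES (420.4 ± 25.0, SD, n = 3), SF at ES (404 ± 98.0), Mr at LS (361 ± 94.2), WF at ES (324 ± 189), SF at LS (193 ± 34.4), WF at LS (166 ± 28.1), WF at EB (84.7 ± 25.0), SF at EB (63.5 ± 21.9) and Mr at EB (63.4 ± 0.422). Neighbours in this order had overlapping libraries except at 1 place, between WF at LS and WF at EB. The 3 EB groups thus formed the low end and could not be ranked among themselves.

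HF05496 was the second most abundant member, with a mean of 108 FPKM over the 27 libraries, and had the same stage pattern at a lower level. Its FPKM in SF came to 13.8, 39.9 and 17.5 at EB, then 175, 164 and 159.6 at ES, then 56.1, 177 and 204 at LS. WF gave 9.14, 24.5 and 19.9 at EB, then 283, 189.7 and 68.3 at ES, then 163, 55.5 and 142 at LS. Mr gave 10.4, 12.9 and 11.0 at EB, then 167, 189.9 and 146 at ES, then 156, 100.8 and 163 at LS. Every ES and LS library lay above every EB library, across all materials. The low libraries of open flowers were SF_LS_1, WF_LS_2 and WF_ES_3.

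The group means of HF05496 were, from the top, WF at ES (180.2 ± 107, SD, n = 3), Mr at ES (167 ± 22.0), SF at ES (166 ± 7.66), SF at LS (146 ± 78.7), Mr at LS (139.9 ± 34.0), WF at LS (120.4 ± 57.1), SF at EB (23.7 ± 14.2), WF at EB (17.8 ± 7.89) and Mr at EB (11.4 ± 1.32). The only gap without overlapping libraries was between WF at LS and SF at EB. Within open flowers, and within buds, neighbouring groups did not differ beyond their spread.

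HF01560 had another pattern, high in Mr and low in both progeny. SF libraries held 2.80, 3.54 and 5.54 FPKM at EB, then 30.8, 17.9 and 6.55 at ES, then 16.5, 2.13 and 0.188 at LS. WF libraries held 11.6, 5.06 and 2.90 at EB, then 4.13, 4.72 and 6.91 at ES, then 0.178, 25.3 and 2.90 at LS. Mr libraries held 198, 304 and 188 at EB, then 210.0, 306 and 215 at ES, then 237, 178 and 209 at LS. All 9 Mr libraries (178 to 306) lay above all 18 SF and WF libraries (0.178 to 30.8). The SF and WF libraries at LS were the most uneven, since the lowest, SF_LS_3 and WF_LS_1, rested on 7 and 8 fragments and the highest, SF_LS_1 and WF_LS_2, on 710 and 1173.

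The means of HF01560 were 244 ± 54.0 FPKM in Mr at ES, 230.2 ± 64.3 in Mr at EB and 208 ± 29.5 in Mr at LS (SD, n = 3 each), then 18.4 ± 12.1 in SF at ES, 9.47 ± 13.8 in WF at LS, 6.53 ± 4.54 in WF at EB, 6.27 ± 8.90 in SF at LS, 5.25 ± 1.47 in WF at ES and 3.96 ± 1.42 in SF at EB. Libraries overlapped between all neighbours except Mr at LS and SF at ES.

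**Figure D1:**
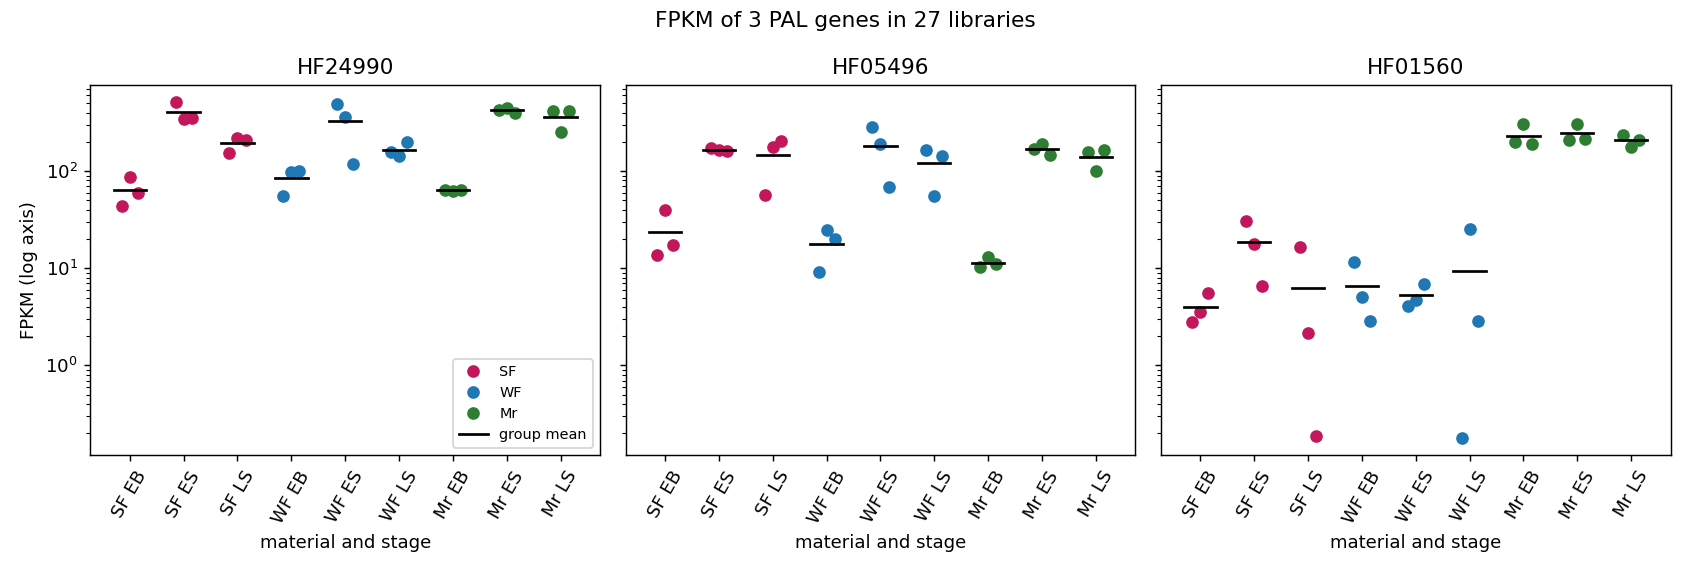
FPKM on a log axis (vertical) of HF24990, HF05496 and HF01560 in each of the 27 libraries, by material and stage (horizontal), with points for libraries in the colour of their material and black lines for group means. HF24990 and HF05496 are low at EB in all materials, while HF01560 lies between 178 and 306 in all Mr libraries and at 30.8 or less in SF and WF.

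HF40548 was near the detection limit everywhere. It was listed at 0 in 19 of 27 libraries, including all 9 of SF. The remaining libraries held 1 or 2 fragments each, 12 in all, which gave at most 0.0847 FPKM. A count of 3 fragments, the upper limit that a count of 0 allows, corresponds to 0.0833 to 0.169 FPKM for this gene, so that no difference between groups was detectable at this depth. Such limits cover counting error only.

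Between ES and EB, the increases of HF24990 and HF05496 were large in all 3 materials but passed the test (limma on log2(FPKM + 1), adjusted p under 0.05) only in Mr. In Mr, HF24990 rose 6.63-fold by mean FPKM (log2 fold change 2.71, SE 0.06, adjusted p = 6.20e-05) and HF05496 rose 14.7-fold (3.76, SE 0.12, adjusted p = 2.08e-04). These were 2 of the 3 members tested, where 41.9% of all genes were called in this comparison. For HF01560 the log2 value there was 0.09 (SE 0.24, adjusted p = 0.784). The Mr libraries of each of these stages lay close together, with at most 1.302 times between the highest and the lowest for both genes.

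In SF, the mean FPKM at ES was 6.36 times that at EB for HF24990, 7.01 times for HF05496 and 4.65 times for HF01560, and the libraries of the stages did not overlap for any of them. The log2 fold changes were 2.68 (SE 0.30, adjusted p = 0.0735), 2.90 (SE 0.38, adjusted p = 0.0751) and 1.78 (SE 0.56, adjusted p = 0.191). The share of all genes whose libraries did not overlap was not counted, here or in any other comparison. No member was called, and neither was any other gene by limma (0%), although 5411 of 29660 genes, all 3 members among them, had an unadjusted p under 0.05. With voom on the recovered fragments 16 genes were called, none of them a member. HF24990 and HF05496 were called without SF_EB_2, the SF bud with the highest levels of both (adjusted p = 0.0395 and 0.0340). In that fit 498 of 29660 genes were called, against 0 in the main fit. Both members were also called when all 9 groups shared 1 estimate of the spread, where 1285 of 29660 genes were called.

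In WF, the ES mean was 3.82 times the EB mean for HF24990 and 10.1 times for HF05496, again with no overlap of libraries. The log2 fold changes were 1.75 (SE 0.56, adjusted p = 0.164) and 3.15 (SE 0.61, adjusted p = 0.0688), and 0 of 3 members was called where 1.65% of genes were. At an unadjusted p under 0.05 there were 2 members, and voom called 1, HF05496, beside 6460 and 701 of 29660 genes. WF_ES_1 stood 4.11-fold above WF_ES_3 for HF24990 and 4.14-fold above it for HF05496. HF01560 had a log2 fold change of -0.12 (SE 0.45) in WF.

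From EB to LS, HF05496 rose in all 3 materials. Its mean was 6.14-fold higher in SF (log2 fold change 2.52, SE 0.62, adjusted p = 0.0470), 6.75-fold higher in WF (2.65, SE 0.53, adjusted p = 0.0272) and 12.2-fold higher in Mr (3.48, SE 0.20, adjusted p = 2.50e-04). HF24990 rose in SF (1.63, SE 0.28, adjusted p = 0.0227) and in Mr (2.45, SE 0.20, adjusted p = 6.31e-04), whereas in WF its log2 value was 0.998 (SE 0.27, adjusted p = 0.0556). The members called were 2 of 3 in SF, 1 of 3 in WF and 2 of 3 in Mr, beside 16.1%, 17.7% and 45.5% of all genes. HF01560 was not called, with log2 fold changes of -0.26, -0.43 and -0.12.

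All LS libraries lay above all EB libraries of their material for both genes. The LS calls in SF and WF were nevertheless sensitive to leaving out single libraries, and so were the calls over all genes. In SF 29 (without SF_LS_2) to 2045 (without SF_EB_2) of 29660 genes were called, and 6920 without SF_LS_1, against 4765 in the main fit. In WF 1509 (without WF_EB_2) to 3708 (without WF_LS_1) were called, and 8707 without WF_LS_2, against 5261. The call of HF05496 in SF was lost without any library but SF_LS_1 (adjusted p = 0.0617 without SF_EB_2 to 0.155 without SF_LS_2), and in WF without any library but WF_LS_2 (0.0667 without WF_LS_1 to 0.0915 without WF_LS_3). That of HF24990 in SF was lost without SF_EB_1, SF_EB_3, SF_LS_2 or SF_LS_3 (0.0617 to 0.0951). With single libraries left out, the log2 fold changes stayed between 2.17 and 3.10 for HF05496 in SF, 2.25 and 3.13 for HF05496 in WF, and 1.39 and 1.88 for HF24990 in SF.

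From ES to LS, HF24990 fell in SF by 1.05 on the log2 scale (SE 0.22, adjusted p = 0.0319), with the ES mean 2.09 times the LS mean and no overlap of libraries. It was 1 of 3 members called, where 19.3% of genes were. The call was lost without SF_ES_1, SF_ES_3, SF_LS_2 or SF_LS_3 (adjusted p = 0.0800 to 0.0984), and it remained without SF_LS_1, when HF01560 was also called (-3.10, adjusted p = 0.0397). Over all 29660 genes, those called in these fits were 6, 356, 7, 979 and 9543 in turn, against 5728 in the main fit. In WF (0.964% of genes called) and in Mr (0%, by voom also 0, and 4494 genes at p under 0.05 before adjustment) limma called no member, and none had an unadjusted p under 0.05 or was called by voom. HF24990 had log2 fold changes of -0.75 (SE 0.54) in WF and -0.26 (SE 0.22) in Mr, and HF05496 of -0.39, -0.50 and -0.28 in SF, WF and Mr. Without SF_LS_1 the value of HF05496 in SF turned to 0.19 (adjusted p = 0.192).

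Genes with a pollen Ole e domain, taken by this domain alone and not shown to be specific to pollen, moved with the stages as well. Of 35 such genes, 22 to 26 had a mean FPKM of 1 or more in each group, and 5 were at 0 in all libraries. In SF their summed FPKM was 7614 to 8871 at EB, then 4397 to 7726 at ES, then 1385 to 2260 at LS. In the same order of stages it was 9205 to 9993, 5533 to 6779 and 1335 to 2041 for WF, and 5698 to 5914, 3867 to 5495 and 2243 to 2965 for Mr. This decline runs opposite to the PAL increase from EB. Genes of light-harvesting proteins and of the small subunit of Rubisco, markers of green tissue, instead had higher median sums after EB in Mr and SF. Their summed FPKM in Mr was 8500 to 9151 at EB, then 13200 to 13860 at ES, then 13270 to 18630 at LS, with no overlap between EB and the later stages. In SF it was 5115 to 7139, 7091 to 7763 and 7129 to 10320, where the stages overlapped slightly, and in WF 6332 to 7142, 6670 to 7829 and 4150 to 7765. Of these 47 genes, 40 to 43 were at a mean FPKM of 1 or more in each group and 1 was at 0 in all libraries. The part of either marker list in the result was not tested. In RNA of whole flowers, fewer cells of a type and less RNA per cell cannot be told apart.

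Between materials, HF01560 was lower in SF and WF than in Mr at all stages. Against Mr, the log2 fold changes in SF were -5.55 at EB (SE 0.27, adjusted p = 1.12e-04), -3.86 at ES (SE 0.51, adjusted p = 0.00267) and -5.69 at LS (SE 0.91, adjusted p = 0.00673). In WF they were -5.08 at EB (SE 0.44, adjusted p = 6.25e-04), -5.29 at ES (SE 0.22, adjusted p = 1.50e-04) and -5.39 at LS (SE 1.08, adjusted p = 0.0209). As ratios of mean FPKM, Mr stood 58.1-fold, 13.2-fold and 33.2-fold above SF, and 35.3-fold, 46.4-fold and 21.9-fold above WF, at EB, ES and LS. No library of SF or WF reached any of Mr.

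The call of HF01560 held under all alternatives in 5 of these comparisons. At LS in WF it was lost without WF_LS_3, Mr_LS_1, Mr_LS_2 or Mr_LS_3 (adjusted p = 0.0644 to 0.0782), where the log2 fold change stayed between -5.22 and -5.50, and in 2 further settings given with the processing. In the fits without those libraries 2655 to 3706 of 29660 genes were called, against 6786 in the main fit. At LS in SF the log2 fold change was -6.86 (adjusted p = 0.00883) without both SF_LS_1 and Mr_LS_2. In SF_LS_1, HF01560 was at 16.5 FPKM, beside 2.13 and 0.188 in the other SF libraries at LS. The median of 8.06% would come to 0.763 FPKM of HF01560 by the WF mean at LS, and that of 5.05% to 10.5 FPKM by the Mr mean. Among the Mr genes, the 15 that were also near 0 in WF had a median of 0%. The part of such transcripts in this value was not tested.

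HF24990 passed the test against Mr at LS and not at EB or ES. At LS its log2 fold change was -0.87 in SF (SE 0.25, adjusted p = 0.0402) and -1.09 in WF (SE 0.25, adjusted p = 0.0314). The Mr mean was 1.86 times that of SF and 2.17 times that of WF. The lowest Mr library, Mr_LS_2, remained above all SF and WF libraries at LS. Without SF_LS_1 and Mr_LS_2 together the difference between SF and Mr was -0.96 (adjusted p = 0.0162). Leaving out single libraries ended the call in SF for all but Mr_LS_2 (adjusted p = 0.0758 without SF_LS_1 to 0.116 without Mr_LS_1), and likewise in WF for all but Mr_LS_2 (0.0564 without WF_LS_2 to 0.106 without Mr_LS_1). The fits that ended it called 5092 to 11740 of 29660 genes in SF, against 9700 in the main fit. In WF they called 2655 to 8636, against 6786. HF05496 passed the test in none of the 6 comparisons with Mr, with log2 fold changes from -0.33 to 0.85, and the sign of 4 of them changed in at least 1 alternative.

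Of the 3 members tested, those called between SF and Mr were 1 at EB, 1 at ES and 2 at LS, beside 41%, 35.6% and 32.7% of all genes. Between WF and Mr they were 1, 1 and 2, beside 35.3%, 24.9% and 22.9%. At EB, leaving out WF_EB_1 brought HF24990 and HF05496 past the threshold in WF, as higher than in Mr (log2 fold changes 0.64 and 0.90, adjusted p = 9.25e-04 and 0.00702). In that fit 11688 of 29660 genes were called, against 10479 in the main fit. The summed FPKM of the green tissue markers also differed between the materials, and at each stage all Mr libraries lay above all libraries of SF and WF. At ES, for example, it was 13200 to 13860 in Mr against 7091 to 7763 in SF and 6670 to 7829 in WF. The part of these markers in the difference of HF01560 was not tested.

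Between SF and WF, which differ in the strength of their fragrance, no member passed the test in limma or in voom at any stage. The shares of all genes called were 7.59% at EB, 8.14% at ES and 3.35% at LS. At ES, the log2 fold changes of SF against WF were 0.52 (SE 0.54, adjusted p = 0.672) for HF24990, 0.11 (SE 0.50, adjusted p = 0.944) for HF05496 and 1.43 (SE 0.53, adjusted p = 0.182) for HF01560. HF01560 was the only member at an unadjusted p under 0.05, and it was called without SF_ES_3 (1.997, adjusted p = 0.0375). In that fit 1301 of 29660 genes were called, against 2414 in the main fit. Without WF_ES_3, the values of HF24990 and HF05496 turned to -0.09 and -0.48. At EB and LS the log2 fold changes of the 3 genes lay between -0.47 and 0.35.

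**Figure D2:**
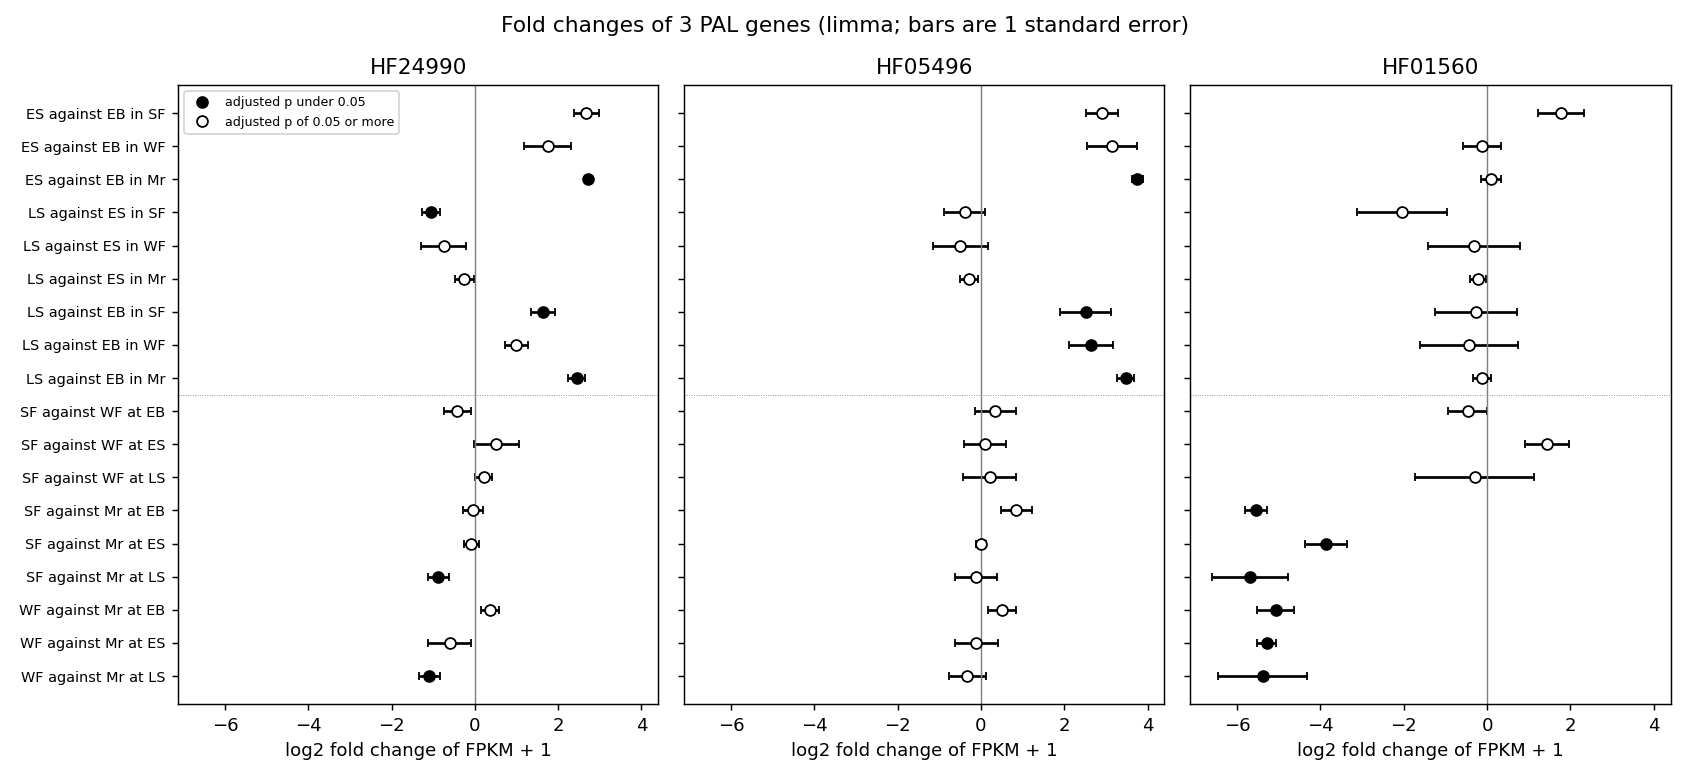
Log2 fold changes of FPKM + 1 (horizontal, bars 1 standard error) of HF24990, HF05496 and HF01560 in the 9 comparisons between stages and the 9 between materials (vertical), with filled points where the adjusted p was under 0.05. The filled points of HF24990 and HF05496 are mainly rises from EB, and those of HF01560 are its 6 comparisons with Mr, from -5.69 to -3.86.

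The change from stage to stage was compared between materials with interaction contrasts, and no member was called by limma or voom in any of 6. For the change from EB to ES, 0% of all genes were called for SF minus WF (2184 at an unadjusted p under 0.05, 0 by voom), 9.23% for SF minus Mr and 3.38% for WF minus Mr. For the change from ES to LS these shares were 0.0303%, 2.88% and 0.489%. HF01560 had the widest contrasts, from EB to ES 1.90 (SE 0.75, adjusted p = 0.630) for SF minus WF and 1.68 (SE 0.63, adjusted p = 0.120) for SF minus Mr, and from ES to LS -1.73 (SE 1.65, adjusted p = 0.997) for SF minus WF and -1.83 (SE 1.14, adjusted p = 0.386) for SF minus Mr. The contrast of SF minus Mr from EB to ES was called without SF_ES_3 (2.25, adjusted p = 0.0175), and that from ES to LS without SF_LS_1 (-2.89, adjusted p = 0.0297). Over all 29660 genes, 2657 and 4556 were called in these fits, against 2738 and 855 in the main fits. Before adjustment, p was 0.0298 (SF minus WF) and 0.0235 (SF minus Mr) for HF01560 from EB to ES. For HF24990 from ES to LS, SF minus Mr was -0.79 (SE 0.32, unadjusted p = 0.0343, adjusted p = 0.192). A rise of HF24990 and HF05496 called in Mr and not in SF or WF was therefore not shown to differ between them. Nor was the fall of HF24990 from ES to LS, called in SF and not in Mr.

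Summed over the 4 members, PAL transcripts of SF reached 91.2 ± 35.9 FPKM (SD, n = 3) at EB, then 588 ± 116 at ES, then 345 ± 103 at LS (227 in SF_LS_1, 398 in SF_LS_2 and 411 in SF_LS_3). In the same order of stages WF reached 109 ± 28.3, 509 ± 294 and 296 ± 63.2, and Mr 305 ± 65.1, 832 ± 95.1 and 708 ± 154. At EB the lowest Mr library (263) lay above the highest of SF (130.4) and WF (128.5), and at LS the lowest Mr library (531) lay above the highest of SF (411) and WF (343). At ES the lowest Mr library (754) was above the highest of SF (722) but not of WF (778). These sums leave out HF04849, which the study also lists as PAL. With HF04849 and HF40549 added, the means at EB, ES and LS were 97.9, 603 and 355 in SF. They were 118, 520 and 315 in WF, and 454, 1032 and 878 in Mr. At ES the lowest Mr library (931) then lay above the highest of SF (740) and of WF (786). All sums are given as a description, without a test.

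The materials also differed in which of the 4 members made up the sum of these 4, which leaves out HF04849. In SF and WF, HF24990 took 49.1% to 81.4% of it in single libraries and HF01560 0.0456% to 15.2%. In Mr at EB, HF01560 took 74.8 ± 4.58% (SD, n = 3), HF24990 21.4 ± 4.20% and HF05496 3.80 ± 0.394%. At ES the shares in Mr were 29.1 ± 3.28%, 50.8 ± 3.21% and 20.1 ± 0.718%, and at LS 29.8 ± 3.58%, 50.5 ± 2.81% and 19.7 ± 0.847%. The share of HF05496 was lowest in buds of all materials (24.9 ± 5.09% in SF and 15.8 ± 3.60% in WF) and reached 28.8 ± 3.98% at ES and 39.6 ± 13.1% at LS in SF, and 35.2 ± 1.08% and 39.1 ± 13.2% in WF. The uneven libraries at LS, SF_LS_1 and WF_LS_2, held the lowest shares of HF05496 (24.7% and 24.8%) and the highest shares of HF01560 (7.26% and 11.3%) of their groups. The share of HF05496 was 44.45% in SF_LS_2 and 49.58% in SF_LS_3.

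**Figure D3:**
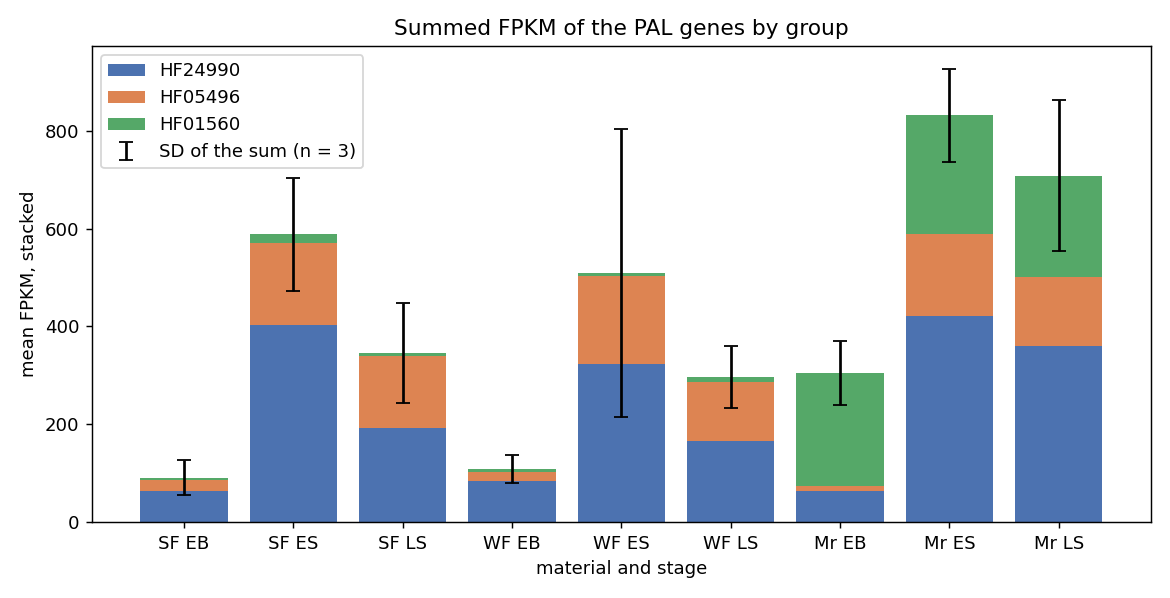
Mean FPKM of HF24990, HF05496 and HF01560 (vertical, stacked) by material and stage (horizontal), with error bars for the SD of their sum over 3 libraries. The sum, which leaves out HF04849, is 305 in Mr buds, of which HF01560 is 74.8%, against 91.2 and 109 in SF and WF buds.

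HF04849 (chromosome 12, 17495993 to 17499395, minus strand), which the study also lists as PAL, has the coding length of HF01560, 2163 bases, and a similar pattern. Mr libraries held 129, 198 and 118 FPKM of it at EB, then 173, 252 and 177 at ES, then 183, 149 and 177 at LS. It was 3.12 to 49.5 in WF and 4.02 to 19.3 in SF, so that here too no library of the progeny reached those of Mr. It was called as lower than in Mr in all 6 comparisons, with log2 fold changes from -4.31 (WF at ES, adjusted p = 0.00271) to -3.75 (SF at ES, adjusted p = 8.33e-04), though at LS in WF not without WF_LS_1, WF_LS_3, Mr_LS_1, Mr_LS_2 or Mr_LS_3 (adjusted p = 0.0806 to 0.104), without the filter (0.0901) or with the replicate number as a block (0.0691). It was called in no comparison between stages or between SF and WF.

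Across the 9 libraries of each material, the Pearson correlation of log2(FPKM + 1) between HF01560 and HF04849 was 0.89 for SF, 0.78 for WF and 0.84 for Mr, as a description. The ratio of HF01560 to HF04849 was 1.18 to 1.60 in Mr and 0.0376 to 1.72 in SF and WF. The ratio within Mr at ES was nearly constant, 1.21 to 1.22. How the counting treated reads that match both genes is not given in the sources used here, so the split between them is uncertain.

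**Figure D4:**
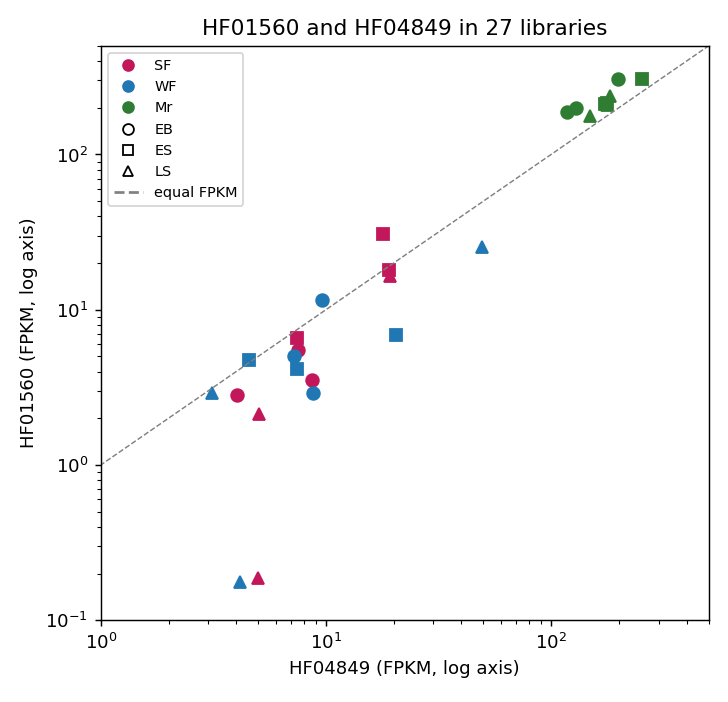
FPKM of HF01560 (vertical) against HF04849 (horizontal), both on log axes, in the 27 libraries, with colours for materials, shapes for stages and a dashed line at equal FPKM. The 9 Mr libraries form a group at the top right, with HF01560 at 178 or more and HF04849 at 118 or more, and the pair of points with HF01560 near 0.18 are SF_LS_3 and WF_LS_1.

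The other genes with the domain showed none of these patterns. HF40549 was, like HF40548, close to 0, with 27 fragments over all libraries and at most 5 in any. HF31783, a model that also holds histidyl-tRNA synthetase domains, was at 30.6 to 41.5 FPKM in the 27 libraries. HF06148, which also holds an SNF2 domain of chromatin remodelling proteins, was at 2.78 to 6.11.

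The genes most like each member were ranked by the Pearson correlation of log2(FPKM + 1) over the 27 libraries, among the 29660 genes that passed the filter. The libraries share stages and materials, so the values are descriptions. HF05496 ranked first for HF24990 (0.926), followed by HF43200 with a Tub and an F-box domain (0.918), HF09273 with a RING-variant domain (0.912), HF05117 with ankyrin repeats and a BTB domain (0.908) and HF42180 without an annotated domain (0.902). For HF05496 the first were HF18116 and HF38968, which both encode Myb-like DNA-binding domains (0.945 and 0.934), then HF24832 with a Dof zinc finger (0.933), HF24990 itself (0.926) and HF25907 with an AAA ATPase domain (0.925). Myb and Dof proteins are families of plant transcription factors. HF38968 was at 0.255 FPKM in Mr and 4.31 in SF at EB, and at 16.8 and 26.8 at ES.

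For HF01560 the most alike was HF00720 (0.970), a chalcone synthase model, the enzyme family that opens the flavonoid branch. HF04849 followed (0.970), then HF18078 of the acyltransferase family PF02458 (0.964), HF15291 with a bestrophin domain (0.963) and HF39662 with an AMP-binding domain (0.963), a domain found among others in 4-coumarate-CoA ligase. HF00720 was at 1126 ± 287 FPKM in Mr at EB and 689 ± 96.6 at ES, and at 79.2 ± 30.1 and 158 ± 63.4 in SF (SD, n = 3). In Mr its mean was thus lower at ES than at EB, unlike that of HF01560. HF01560 had correlations of 0.202 with HF24990 and -0.077 with HF05496 over the 27 libraries.

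The genes around PAL in the pathway were taken from protein domains in the annotation and from the genes the study names, 173 in all, of which 105 passed the filter. They cover the supply of phenylalanine by the shikimate pathway, anthranilate synthase, chalcone synthase and isomerase, and methyltransferases. Between ES and EB in Mr, 31 of the 105 were called higher and 34 lower, beside 23.2% and 18.7% of all genes, with a median log2 fold change of -0.02 against 0 over all genes tested. Scaling by total fragments, which shifted the median of all genes by -0.13, gave 20 higher and 43 lower. With that scaling 13297 of 29660 genes were called in either direction, against 12436 as deposited. In SF none was called (0% and 0% of all genes), and in WF 1 was called higher and 6 lower, beside 0.516% and 1.13%.

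Within the list, the flavonoid genes were mostly lower in opening Mr flowers, with 11 of 15 called lower and 2 higher and a median of -0.84 (-1.01 scaled by total fragments). HF25114, a chalcone isomerase model, was among those that rose (0.82, SE 0.09, adjusted p = 0.00237, but 0.434 with all 9 groups in 1 fit). HF00720, the chalcone synthase model, was at -0.68 on the log2 scale (SE 0.24, adjusted p = 0.0653). Prephenate dehydratase HF06024, which acts in phenylalanine synthesis, rose from 113 ± 4.49 to 336 ± 14.1 FPKM (1.56, SE 0.06, adjusted p = 2.27e-04). The carboxyl methyltransferase HF13510 rose from 205 ± 35.7 to 1137 ± 193 (2.47, SE 0.19, adjusted p = 8.51e-04) and the O-methyltransferase HF22635 from 60.3 ± 5.75 to 232 ± 33.5 (1.92, SE 0.13, adjusted p = 6.47e-04). The supply genes as a set split into 10 called higher and 6 lower of 29, but 5 higher and 11 lower scaled by total fragments.

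Of the 8 tested genes that the study names, 3 were called lower in opening Mr flowers. HF25290, a model with a methyltransferase dimerisation domain, fell from 33.9 ± 4.06 to 7.14 ± 4.37 FPKM (-2.23, SE 0.39, adjusted p = 0.00798). HF41323, with glycosyl transferase domains, was at 3.18 ± 0.862 and 0.976 ± 0.557 (-1.10, adjusted p = 0.0251), and HF41090, a shikimate kinase model, at 137.6 ± 6.30 and 111 ± 11.2 (-0.31, adjusted p = 0.0387). HF25090, with alcohol dehydrogenase domains, was called higher at 0.64 (adjusted p = 0.0192). The calls of these last 3 were lost without the filter (0.0671, 0.0763 and 0.0507) and without some single libraries, and those of HF41323 and HF41090 also with all 9 groups in 1 fit (0.0667 and 0.207) and with the replicate block (0.0777 and 0.0812).

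At ES, 27 of the 105 pathway genes were called higher and 24 lower in SF than in Mr, beside 18.8% and 16.8% of all genes, with a median of 0.06 against 0.01. Of 51 methyltransferase genes, 18 were higher and 7 lower, and of 15 flavonoid genes 2 were higher and 8 lower. HF00720 (-2.20, SE 0.32, adjusted p = 0.00379) and HF25114 (-1.94, SE 0.35, adjusted p = 0.00806) were lower in SF, like HF01560 and HF04849. Of the 8 tested genes that the study names, 3 were lower in SF (HF25090, HF25290 and HF41090) and 1 was called higher (HF43372, with a chorismate binding domain). The call of HF43372 rested on 4 to 8 fragments in each SF library (0.859 to 2.035 FPKM) and 0 in all 3 of Mr. It did not exceed 0.821 FPKM in any Mr library, so it passed the filter through SF and WF alone, and the stricter filter removed it. HF44388, with the domain of DAHP synthase at the head of the shikimate pathway, was higher in SF (239 ± 10.4 against 117 ± 10.4 FPKM, log2 fold change 1.03, SE 0.10, adjusted p = 8.11e-04). HF13510 was also higher (2145 ± 119 against 1137 ± 193, log2 fold change 0.93, SE 0.21, adjusted p = 0.0190), but not without SF_ES_1, SF_ES_3 or Mr_ES_1 (0.0511 to 0.0773), without the filter (0.536) or with the replicate block (0.117). The carboxyl methyltransferase HF44215, with 188 ± 4.397 FPKM for SF, 144 ± 47.3 for WF and 97.8 ± 67.0 for Mr at ES, was not called. Between SF and WF at ES, 7 pathway genes were higher and 5 lower, beside 4.43% and 3.71% of all genes. Among those named was HF25290, lower in SF (0.423 ± 0.186 against 4.59 ± 1.61 FPKM, log2 fold change -1.94, SE 0.23, adjusted p = 0.00672).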

How the data were processed

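RNA of whole flowers was sequenced as paired-end reads in 27 libraries, which the authors mapped to the apple HFTH1 genome. The deposited values are FPKM for 48445 genes, and the file holds no comparisons of the authors. The submitters' processing notes name StringTie 1.3.3b and DESeq2 1.16.1, while for the aligner, and for how strand and shared reads were counted, nothing was given in the sources used here. The authors' FPKM carry a median-of-ratios scaling, since their denominators were 0.8855 to 1.1034 times the fragments on genes and the same multiple of that size factor in every library. Gene lengths of HF genes are coding lengths, with 98.1% multiples of 3. Fragments were recovered from the FPKM steps (of 771152 values below 1000 fragments, 100% came within 0.05 of whole numbers). For a gene of 1 kb, 3 fragments were 0.095 to 0.193 FPKM.

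On log2(FPKM + 1), limma 3.58.1 (R 4.3.3) was fitted to just the groups compared, with a trend of the variance on the mean level. The p-values were adjusted by Benjamini and Hochberg's method across 29660 genes, those reaching FPKM 1 in 3 or more libraries. Genes with an adjusted p under 0.05 were called, whatever their fold change, which is the study's own threshold. FPKM are not counts, so limma replaced the DESeq2 test of the study, and voom on the recovered fragments was an alternative. Fold changes on this scale understate changes of low genes. There were 9 comparisons between materials, 9 between stages and 6 interaction contrasts, which share libraries. The fit was tested on simulated data. Descriptions and plots used Python 3.11.15, numpy 2.4.6, pandas 2.3.3 and matplotlib 3.10.9.

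Libraries with transcripts of another material were found from genes with a median of at most 0.1 FPKM in the other libraries of the material and of at least 3 in another. Named genes were the members, all other genes with their domain, the 5 genes most correlated with each tested member, the 2 most abundant genes of each pathway set and the pathway genes the study names. The members and lists were chosen with earlier results of these data known. No reference sequence was used here. No library formed a group large enough to be searched for single outliers.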

Additional observations from a re-analysis of the deposited data

How the results depend on the processing

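The 4 calls of HF24990 and HF05496 from EB in Mr and 5 of the 6 calls of HF01560 against Mr held in all alternatives run, namely another pseudocount, no filter, a stricter filter, scaling by total fragments, all 9 groups in one fit, a replicate block, voom, no trend and each library left out. Counts of members called that moved were, without the filter, 1 for SF against Mr at LS and 0 for WF against Mr at LS, for LS against ES in SF and for LS against EB in SF and in WF. Of the 48445 genes then tested, 7369, 4573, 1904, 1762 and 2792 were called in these comparisons. In the main setting 9700, 6786, 5728, 4765 and 5261 of 29660 were. Why these calls were lost was not tested. With the replicate block the counts of members were likewise 1 for SF against Mr at LS and 0 for WF against Mr at LS, LS against ES in SF and LS against EB in SF and in WF. All genes called with the block were 6920, 2456, 2, 0 and 920 in this order. The replicate numbers were not taken to pair the samples, since in 0 of 18 comparisons did every same-numbered pair have a correlation over 0.1 (range -0.643 to 0.554). With 3 libraries per group this check cannot exclude a pairing. With all 9 groups in one fit the counts of members were 2 for ES against EB in SF and in WF and for LS against EB in WF, and 1 for SF against Mr at LS. All genes called there were 1285, 2854, 12280 and 12191, against 0, 489, 5261 and 9700 in the main setting. Voom gave 1 for ES against EB in WF and 2 for LS against EB in WF, and no trend gave 1 for LS against EB in SF. Beside these, 701, 5380 and 4588 of all genes were called.

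Pathway genes called higher from EB to ES in WF were 0 without the filter, with the replicate block or with no trend, 3 with the stricter filter or voom, 4 scaled by total fragments and 12 with all 9 groups in one fit, and those called lower were 0 without the filter or with the block and 16 with all 9 groups. All genes called in either direction in WF were 60, 0 and 463 without the filter, with the block and with no trend. They were 692, 701, 616 and 2854 with the stricter filter, voom, total fragments and all 9 groups, against 489 in the main setting. All 9 groups in one fit gave 5 higher and 9 lower in SF and 16 higher in Mr, and total fragments 20 higher in Mr. Beside these, 1285, 8472 and 13297 of all genes were called, against 0 in SF and 12436 in Mr in the main setting. Between SF and WF at ES 4 were higher without the filter, and between SF and Mr at ES 15 were lower with the block. In either direction, 1904 and 6281 of all genes were called there, against 2414 and 10552 in the main setting. The cause of these shifts was not tested.

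With each library left out in turn, members called ranged over 0 to 2 for ES against EB, LS against ES and LS against EB in SF, 0 to 1 for LS against EB in WF and WF against Mr at LS, 1 to 2 for SF against Mr at LS, 1 to 3 for WF against Mr at EB, 0 to 1 for SF against WF at ES, and 0 to 1 for SF minus Mr in the changes from EB to ES and from ES to LS (HF01560 without SF_LS_1, -2.89, adjusted p = 0.0297). Pathway counts ranged over 20 to 30 higher in Mr from EB to ES, 0 to 4 higher and 0 to 2 lower in SF, 0 higher and 0 to 1 lower in WF, and 2 to 7 higher and 2 to 4 lower for SF against WF at ES. Fits on fewer samples have less power. Calls over all genes moved as well, for LS against ES in SF from 6 (without SF_ES_1) to 9543 (without SF_LS_1) of 29660.

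Fold changes that turned sign were all of results not called. Scaled by total fragments, HF24990 and HF05496 were at 0.0088 and 0.088 for SF against Mr at ES, HF05496 at 0.0094 for WF against Mr at ES, and HF01560 at -0.095 for ES against EB in Mr. HF05496 was at 0.25 for SF against Mr at LS without both libraries with WF transcripts, a setting chosen after seeing the data. With single libraries left out HF24990 ranged from -0.31 to 0.18 for SF against Mr at EB, -0.27 to 0.018 at ES, -1.01 to 0.0034 for WF against Mr at ES and -0.087 to 0.93 for SF against WF at ES. HF05496 ranged from -0.099 to 0.090 for SF against Mr at ES, -0.45 to 0.47 at LS, -0.54 to 0.47 for WF against Mr at ES, -0.61 to 0.15 at LS, -0.088 to 0.65 (EB), -0.48 to 0.54 (ES) and -0.27 to 0.80 (LS) between SF and WF, and -0.73 to 0.19 for LS against ES in SF. HF01560 ranged from -0.080 to 0.31 (ES) and -0.25 to 0.097 (LS) against EB in Mr, -0.51 to 0.34 and -1.64 to 0.60 in WF, -1.32 to 0.61 (LS) in SF, -1.52 to 0.72 for LS against ES in WF and -1.36 to 0.91 for SF against WF at LS. By recovered fragments in place of FPKM, the share of HF05496 was 33.5% in WF at ES and 19.3% in Mr at ES, and 25 other shares moved by less than 1 SD.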
